A study of Mus musculus with 12 samples.

Results

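The 7 genes described here are the PGC-1 coactivators *Ppargc1a* (PGC-1α), *Ppargc1b* (PGC-1β) and *Pprc1*, and 4 of their partners, *Esrra*, *Lpin1*, *Nrip1* and *Sirt1*, as measured in the liver of *db*/*db* mice that ingested molecular hydrogen. Every probe whose RefSeq record belongs to 1 of the 7 genes was taken, which gave 9 of the 39429 probes of the array. *Ppargc1a* had 2 probes, A_51_P279038 (the brighter) and A_55_P2011702 (the dimmer). *Lpin1* had 2 as well, A_55_P2083481 (the brighter) and A_55_P2083474 (the dimmer). The other genes had 1 probe each. Where members are counted as tested or called, each probe counts once. The rule uses the RefSeq records and no measured value, though the 7 genes were proposed with earlier results of these data known.

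Male *db*/*db* mice at 8 weeks of age, which lack a functional leptin receptor and become obese and diabetic, served in treated and control groups alike. MgH2, which releases H2 in the stomach, was given by gavage once a day for 1, 3 or 7 days, at 0.9 mg/kg by the sample labels, while the study's methods name higher doses, and Mg(OH)2 served as its control. H2-water (0.8 mM) was drunk for 14 days against the same water after degassing. On each array, Cy5 marked the pooled liver RNA of 3 treated mice and Cy3 that of 3 controls, with 3 arrays per group and 12 in all. Because the dyes were never swapped, a change of the RNA and a dye bias of the probe enter the ratio together.

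PGC-1 proteins do not bind DNA themselves. They dock on nuclear receptors and other transcription factors and bring in histone acetyltransferases and the Mediator complex. In liver, PGC-1α rises on fasting through glucagon, cAMP, CREB and glucocorticoids and drives gluconeogenesis and, with PPARα, fatty acid oxidation, whereas PGC-1β also coactivates SREBP1 on lipogenic genes. ERRα (*Esrra*) is the receptor through which both raise mitochondrial genes, lipin 1 (*Lpin1*) is a phosphatidate phosphatase that also coactivates PPARα together with PGC-1α, RIP140 (*Nrip1*) is a corepressor that opposes them, and SIRT1 deacetylates PGC-1α.

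*Ppargc1a* and *Lpin1* were the genes whose probes were called after MgH2, so their promoters are shown. The windows are from RefSeq (GRCm38.p6) and run from 250 bases before to 50 bases after the annotated start. RefSeq windows were found for 6 of the 7 genes, 7 windows in all. Those of *Ppargc1a* and *Lpin1* belong to a start inside the gene. On the minus strand the 2 genes reach to 52115853 and 16653903. Other starts of these 2 genes were not scanned, so the matches describe only the windows shown. Capitals mark the cAMP response element core (TGACG, or CGTCA on the other strand) in *Ppargc1a* and the nuclear receptor core (AGGTCA, or TGACCT) in *Lpin1*, each written 5′ to 3′ along the gene.
Ppargc1a, chr5:51567676-51567975, minus strand: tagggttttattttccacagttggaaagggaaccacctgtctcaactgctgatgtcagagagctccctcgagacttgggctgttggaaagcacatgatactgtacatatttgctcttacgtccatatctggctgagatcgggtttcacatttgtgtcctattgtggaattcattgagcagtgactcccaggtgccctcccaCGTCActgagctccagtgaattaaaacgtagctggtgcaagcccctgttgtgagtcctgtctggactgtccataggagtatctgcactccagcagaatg
Lpin1, chr12:16610917-16611216, minus strand: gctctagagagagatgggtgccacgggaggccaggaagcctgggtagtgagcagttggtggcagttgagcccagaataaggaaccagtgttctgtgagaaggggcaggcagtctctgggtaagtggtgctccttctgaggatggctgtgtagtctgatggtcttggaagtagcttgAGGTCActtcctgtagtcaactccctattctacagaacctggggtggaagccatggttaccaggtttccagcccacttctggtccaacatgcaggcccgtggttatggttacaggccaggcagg
The match in *Ppargc1a* begins 49 bases before the start and that in *Lpin1* 74 bases before it. The cAMP response element core occurs in 20.8% of 32851 promoter windows on either strand, and among these genes in *Ppargc1a* and *Sirt1*. The nuclear receptor core occurs in 16.3% of the windows, and here in *Lpin1* and *Pprc1*. The forkhead motif TGTTTAC (or GTAAACA) occurs in 3.65% of the windows and in none of the 7. These matches describe letters and not bound sites.

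In every group, 51.8% to 56.5% of the spots of an array were well above background in both channels, and no spot of the 9 probes was marked as an outlier or saturated. The arrays of 14 days were on a slide of their own. All arrays of 1 day shared a slide with replicate 1 of 3 days, replicates 2 and 3 of 3 days shared a slide with replicates 1 and 2 of 7 days, and replicate 3 of 7 days was on a further slide. The control channels of MgH2 arrays with the same replicate number were nearly alike across days, with a median absolute log2 difference of 0.0548 to 0.0750 over 9 pairs, against 0.0949 to 0.142 over the 9 pairs of other numbers within a day and the 18 between days. The treated channels did not group by number, at 0.0906 to 0.169 over the 9 pairs of the same number and 0.0876 to 0.124 over the 9 pairs within a day. The brighter *Lpin1* probe shows the same pattern. Its level, the log2 signal relative to the 75th percentile of the channel, was -0.03, -0.09 and -0.07 in the control pools of replicate 1 at 1, 3 and 7 days. In replicate 2 it was 0.28, 0.23 and 0.25, and in replicate 3 it was 0.56, 0.51 and 0.54. The 3 control pools differed from each other by more than each differed between days. The labels do not say that the days shared control pools, and ratios at 1, 3 and 7 days are read here as comparisons that may share them. P-values measure the spread between pools of 3 mice.

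**Figure D1:**
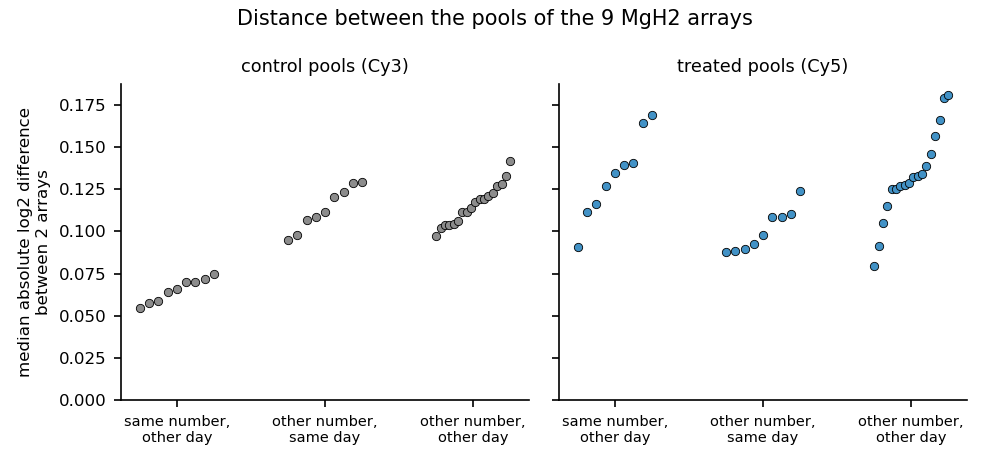
Median absolute log2 difference between the levels of 2 MgH2 arrays (y axis), for control pools (left) and treated pools (right), by whether the 2 arrays share a replicate number. Each point is a pair of arrays; control pools of the same number lie at 0.0548 to 0.0750, below all other pairs of control pools.

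At 1 day of MgH2, the dimmer *Lpin1* probe was the only member called higher and no member was called lower, so that 1 of the 9 probes was called where limma called 9.39% of all 19662 probes tested at an adjusted p under 0.05. At 3 days, both probes of *Ppargc1a* and both of *Lpin1* were called higher, against 23.4% of 19415 probes. These are 4 of 9 probes but only 2 of the 7 genes. At 7 days the same 4 probes of the same 2 genes were called higher, against 29.5% of 19461 probes. At 14 days of H2-water, none of the 8 members tested was called by limma, against 8.87% of 20461 probes. Of the 8, 1 had an unadjusted limma p under 0.05 (*Nrip1*), as had 4986 of the 20461 probes. The methods' t-test called no member even unadjusted, and 4099 of 20411 probes. The median log2 ratio of the members tested was 0.07, 0.11, 0.27 and -0.05 at 1, 3, 7 and 14 days, and that of all probes tested lay within 0.01 of 0 each time.

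**Figure D2:**
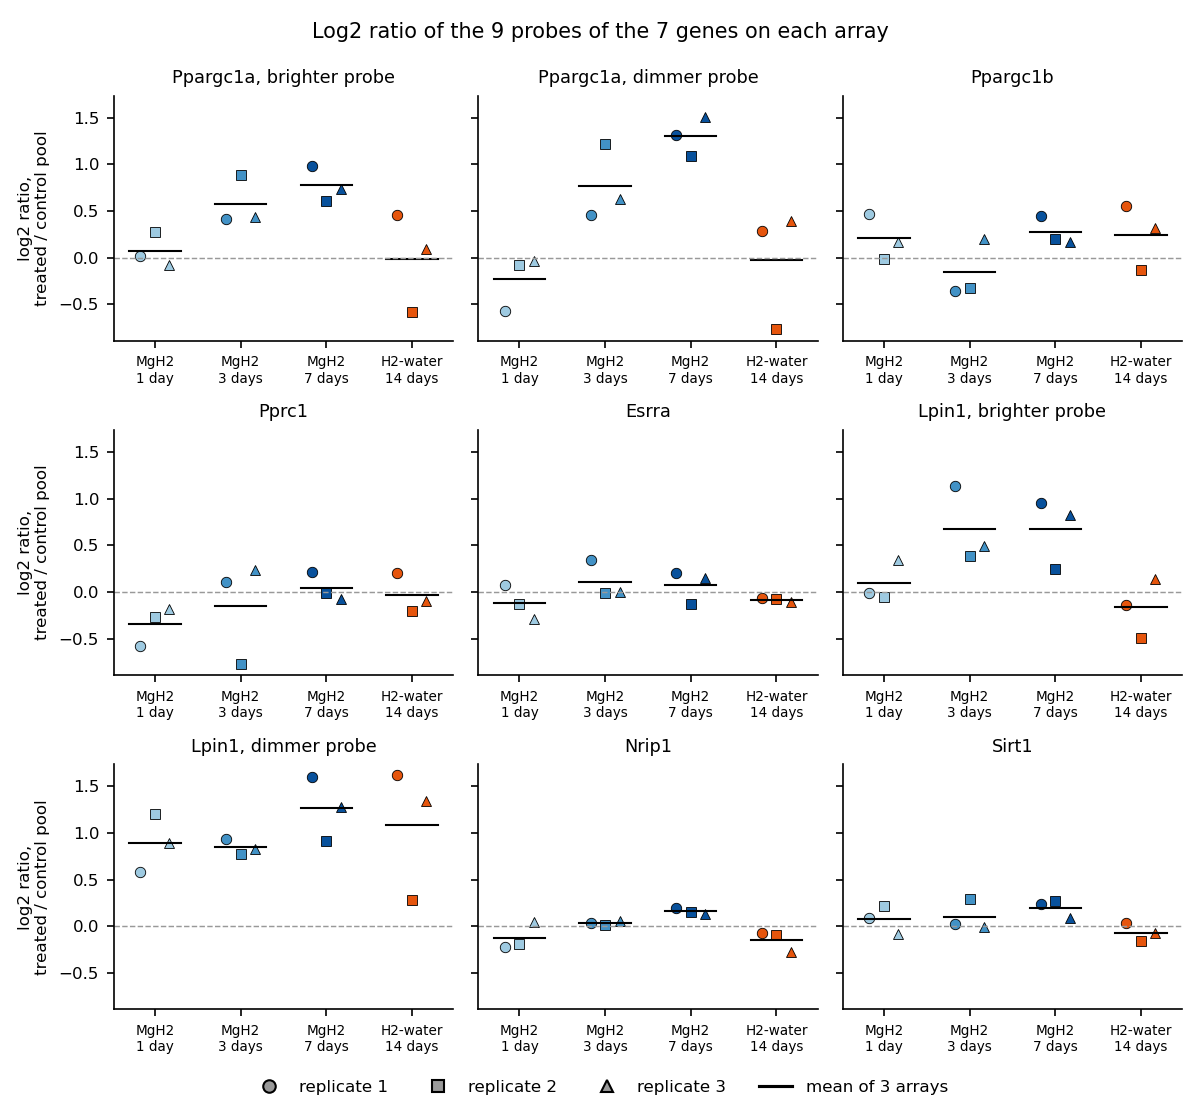
Log2 ratio of treated over control pool (y axis) for the 9 probes on the 12 arrays, by group (x axis). Symbols give the replicate number and bars the mean of 3 arrays; both *Ppargc1a* probes lie above 0 on all arrays of 3 and 7 days and on both sides of 0 at 14 days.

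*Ppargc1a*, the coactivator that fasting induces, was higher in the treated pools after 3 and 7 days of MgH2 and not after 1 day. The log2 ratio of its brighter probe was 0.02, 0.28 and -0.08 in replicates 1, 2 and 3 at 1 day. It was 0.42, 0.89 and 0.43 at 3 days and 0.98, 0.60 and 0.74 at 7 days. All 6 values of 3 and 7 days were above the highest of 1 day. The mean at 3 days was 0.58 ± 0.27 (SD, n = 3), or 1.49-fold (SE 0.17, limma adjusted p = 0.033), and at 7 days it was 0.77 ± 0.19 (SD, n = 3), or 1.71-fold (SE 0.17, adjusted p = 0.00768). At 1 day it was 0.07 ± 0.18 (SD, n = 3), with a 95% interval of -0.30 to 0.45 and an adjusted p of 0.831. The call at 3 days was lost whichever array was left out, with means of 0.42 to 0.66 and adjusted p of 0.0669 to 0.199, and the call at 7 days was lost without replicate 1 (0.67, adjusted p = 0.0563).

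The dimmer *Ppargc1a* probe, with signals of 26.4 to 159 against 305 to 1129 for the brighter, gave larger ratios at 3 and 7 days. It read -0.57, -0.08 and -0.04 at 1 day, 0.45, 1.21 and 0.63 at 3 days, and 1.31, 1.09 and 1.51 at 7 days. Every array of 1 day was below 0, and every array of 3 and 7 days was above it. The mean was 0.77 at 3 days (1.70-fold, SE 0.22, limma adjusted p = 0.0292) and 1.30 at 7 days (2.47-fold, SE 0.22, adjusted p = 0.00199). At 3 days the call was lost without replicate 2 (0.54, adjusted p = 0.189) or replicate 3 (0.83, adjusted p = 0.0798), and at 7 days it was kept whichever array was left out. After normexp correction and loess together, the means were 0.34 and 0.62 with both calls kept, and those of the brighter probe 0.53 and 0.70. Across the 12 arrays, the ratios of both probes correlated at r = 0.91 (rho 0.90), as a description of arrays whose MgH2 controls may be shared.

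After 14 days of H2-water, the arrays disagreed about *Ppargc1a*. The brighter probe read 0.46, -0.58 and 0.09 and the dimmer 0.28, -0.76 and 0.39 in replicates 1, 2 and 3. Replicate 2 was below 0 and the others above it for both probes. The mean of the brighter was -0.01 ± 0.53 (SD, n = 3), with a 95% interval of -0.39 to 0.37 (limma adjusted p = 0.982), and that of the dimmer was -0.03 ± 0.64 (SD, n = 3), with an interval of -0.52 to 0.46.

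In the separate channels, the level differed between days of MgH2 mainly in the treated pools. Control pools that the days may share could not show a change with time, so their even levels carry no separate weight. For the brighter probe the control pools of MgH2 averaged 0.32 ± 0.10, 0.43 ± 0.12 and 0.44 ± 0.16 (SD, n = 3 each) at 1, 3 and 7 days, and the treated pools 0.40 ± 0.08, 1.00 ± 0.17 and 1.20 ± 0.34. In order from the lowest mean, the treated and control pools of 14 days came first, at -0.01 and 0.0013, and overlapped each other. The 3 sets of MgH2 control pools and the treated pools of 1 day followed, and each overlapped its neighbour in the order. The treated pools of 3 and 7 days were highest, overlapped each other and lay above all other pools, the lowest of them at 0.84 and the highest control pool at 0.54. The control pools of 14 days lay below all MgH2 control pools, in an experiment whose mice, agent and slide also differed.

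**Figure D3:**
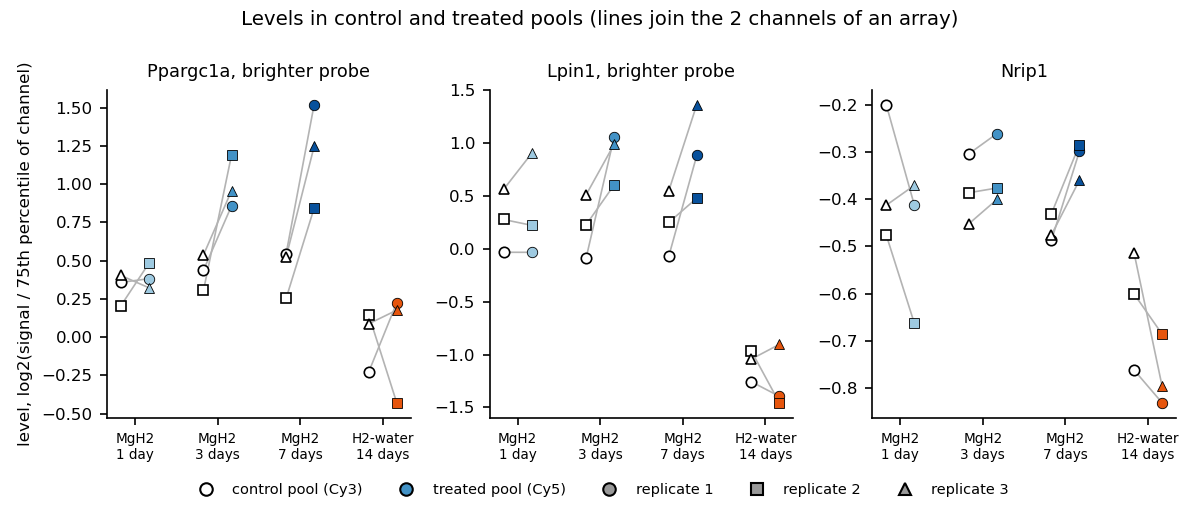
Levels of *Ppargc1a* and *Lpin1* (brighter probes) and *Nrip1* in control (open) and treated (filled) pools, as log2 signal relative to the 75th percentile of the channel (y axis), by group (x axis); lines join the channels of an array. *Ppargc1a* in the treated pools of 3 and 7 days (0.84 and above) lies over all control pools (0.54 and below).

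The differences between days ask whether the ratio moved further with longer treatment. Between 3 days and 1 day, limma called none of the 9 members and 0.0208% of 19213 probes. An unadjusted p under 0.05 was found for 2 members and for 2960 of all probes. A fit with the replicate number as a block called no member either. *Ppargc1a* differed by 0.51 for the brighter probe (95% interval -0.02 to 1.04, adjusted p = 0.347) and 1.00 for the dimmer (0.32 to 1.67, adjusted p = 0.173), and its groups did not overlap for either. Within the slide that held arrays of both days, 1 against 3, these differences were 0.34 and 0.68.

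Between 7 days and 1 day, 1 of 9 members was called higher, against 6.96% of 19161 probes called in either direction. That member was the dimmer *Ppargc1a* probe, which was 1.53 higher (95% interval 0.86 to 2.21, adjusted p = 0.021), with differences of 1.88, 1.17 and 1.55 within replicate numbers 1, 2 and 3. The brighter probe was 0.70 higher (0.17 to 1.23, adjusted p = 0.101), with 0.96, 0.32 and 0.81 within numbers. Its adjusted p was 0.039 with the replicate number as a block over the 9 MgH2 arrays, a fit added after the control channels had been compared, and that block called 2675 probes in place of 1334. No slide held arrays of both 1 and 7 days. With the slide as a fixed block the differences were 0.96 for the dimmer probe (adjusted p = 0.669) and 0.47 for the brighter (adjusted p = 0.724), and no probe on the array was called. The call of the dimmer probe was also lost without replicate 1 or 2 of 1 day or replicate 1 or 3 of 7 days. Values were then 1.36 to 1.61 and adjusted p 0.0502 to 0.0746. With no filter on dim probes the call was lost as well (adjusted p = 0.0713). After normexp and loess the call was kept, but the ratios were smaller. They were -0.15, -0.03 and 0.10 at 1 day and 0.77, 0.45 and 0.65 at 7 days.

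Between 7 and 3 days, limma called none of the 9 members and 0% of 19094 probes (904 at an unadjusted p under 0.05, none of them members; the replicate block called no member). The brighter *Ppargc1a* probe differed by 0.19 (95% interval -0.33 to 0.72) and the dimmer by 0.54 (-0.14 to 1.22). Within the slide that held 2 arrays of each day, they differed by 0.13 and 0.28.

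Between 14 days of H2-water and 7 days of MgH2, 2 of the 8 members tested were called lower at 14 days, against 6.59% of 18730 probes called in either direction. The dimmer *Ppargc1a* probe differed by -1.33 (95% interval -2.01 to -0.66, adjusted p = 0.0335) and *Nrip1* by -0.30 (-0.48 to -0.13, adjusted p = 0.0463). The brighter *Ppargc1a* probe differed by -0.78 (-1.31 to -0.26, adjusted p = 0.0748) and the brighter *Lpin1* probe by -0.84 (-1.39 to -0.29, adjusted p = 0.0712, or 0.0442 after normexp and loess). Both calls were lost whichever array of the 2 groups was left out, with values of -1.54 to -0.97 for *Ppargc1a* and -0.34 to -0.24 for *Nrip1*. After normexp and loess the dimmer *Ppargc1a* probe read 0.21, -0.12 and 0.28 at 14 days and 0.77, 0.45 and 0.65 at 7 days. Agent, duration, mice, slide and software version differed together between these groups, and their parts cannot be told apart.

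**Figure D4:**
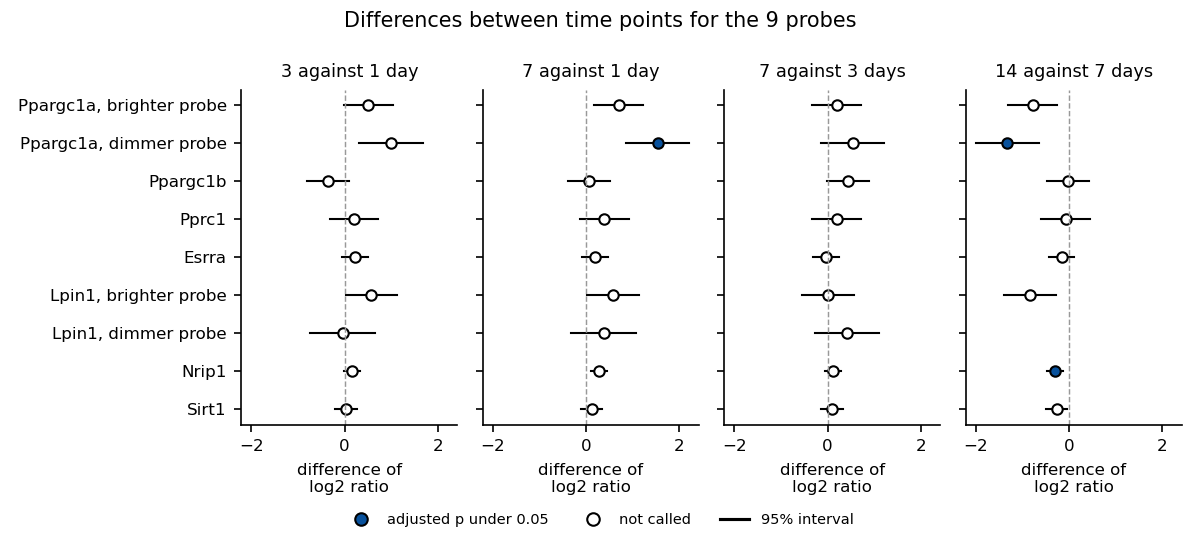
Difference of the log2 ratio between time points (x axis) for the 9 probes, with 95% intervals as lines; filled points have a limma adjusted p under 0.05. The dimmer *Ppargc1a* probe is called in 7 against 1 day (1.53) and 14 against 7 days (-1.33), *Nrip1* in 14 against 7 days (-0.30), and the dimmer *Lpin1* probe has no point in 14 against 7 days because it was not tested there.

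The other PGC-1 coactivators showed no called change. *Ppargc1b*, which also serves lipogenic genes, read 0.46, -0.01 and 0.17 at 1 day, -0.35, -0.32 and 0.20 at 3 days, 0.45, 0.20 and 0.17 at 7 days and 0.55, -0.13 and 0.31 at 14 days. Values on both sides of 0 occurred in all groups but that of 7 days. Its means lay between -0.16 (3 days) and 0.27 (7 days, 95% interval -0.05 to 0.59, limma adjusted p = 0.182). *Pprc1*, a relative of PGC-1α that responds to growth signals, read -0.58, -0.27 and -0.19 at 1 day, all below 0, with a mean of -0.34 (95% interval -0.72 to 0.03, adjusted p = 0.224). After normexp and loess its 1-day arrays read -0.17, -0.15 and -0.06. At the other times its arrays lay on both sides of 0, from -0.77 to 0.23, and its means from -0.15 to 0.05.

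*Lpin1* was, beside *Ppargc1a*, the member with called ratios after MgH2. Its brighter probe read -0.01, -0.05 and 0.34 at 1 day, 1.14, 0.38 and 0.49 at 3 days, and 0.96, 0.24 and 0.83 at 7 days. The 3-day arrays lay above those of 1 day, and the 7-day arrays overlapped them through replicate 2. The means were 0.67 at 3 days (1.59-fold, SE 0.18, limma adjusted p = 0.0224) and 0.68 at 7 days (1.60-fold, SE 0.18, adjusted p = 0.0174). The call at 3 days was lost without replicate 1 (0.44, adjusted p = 0.14) or 3 (0.76, adjusted p = 0.0545), and that at 7 days without replicate 1 (0.54, adjusted p = 0.114) or 3 (0.60, adjusted p = 0.102). Both were lost with only the arrays compared in the fit (adjusted p = 0.105 and 0.0648), and the 3-day call with no filter on dim probes (adjusted p = 0.063). At 14 days it read -0.14, -0.49 and 0.14. Its level in the 14-day pools, -1.09 ± 0.15 in control and -1.25 ± 0.30 in treated pools (SD, n = 3 each), did not reach the lowest MgH2 pool at -0.09.

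The dimmer *Lpin1* probe was above 0 on all 12 arrays, which the brighter was not. It read 0.58, 1.20 and 0.89 at 1 day, 0.93, 0.78 and 0.83 at 3 days and 1.60, 0.92 and 1.28 at 7 days. It was called at all 3 times, at 0.89 (limma adjusted p = 0.0333), 0.85 (adjusted p = 0.0209) and 1.26 (adjusted p = 0.00244), but did not differ by call between any of them. At 14 days it read 1.62, 0.28 and 1.35 where no control pool and 1 treated pool was well above background, and it was not tested. After normexp and loess the means at 1, 3 and 7 days were 0.23, 0.30 and 0.33, with the call at 1 day lost (adjusted p = 0.0523). Whichever array was left out, the calls at 1 day (0.74 to 1.05) and 3 days (0.80 to 0.88) were lost as well. Without a dye swap, a dye bias of this probe and a change of the RNA cannot be told apart, and its ratios followed those of the brighter probe loosely across the 12 arrays (r = 0.35, rho 0.18).

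*Nrip1*, the corepressor, had small and even ratios. They were -0.22, -0.19 and 0.05 at 1 day, 0.04, 0.01 and 0.06 at 3 days, 0.19, 0.16 and 0.13 at 7 days and -0.07, -0.09 and -0.28 at 14 days. The 7-day arrays lay above those of all other days and the 14-day arrays were all below 0. The mean at 7 days was 0.16 (1.12-fold, SE 0.055), and its limma adjusted p of 0.0536 became 0.0478 with the replicate block over the MgH2 arrays and 0.0199 after normexp and loess. Between 7 days and 1 day the difference of 0.28 had an adjusted p of 0.0595, or 0.0496 with that block.

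*Sirt1*, the deacetylase of PGC-1α, read 0.09, 0.22 and -0.08 at 1 day, 0.03, 0.30 and -0.00 at 3 days, 0.24, 0.27 and 0.09 at 7 days and 0.03, -0.16 and -0.08 at 14 days. It was above 0 on all arrays of 7 days, where its mean of 0.20 (1.15-fold, SE 0.072) had a limma adjusted p of 0.0628, and 0.0129 with the replicate block over the MgH2 arrays. *Esrra*, the receptor partner, showed no called change. Its means were -0.12, 0.11, 0.07 and -0.08 at 1, 3, 7 and 14 days, with 95% intervals within -0.31 and 0.30, and its levels in all 8 sets of pools lay between 2.69 and 3.12.

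Genes that work with the PGC-1 proteins were counted in lists, each gene by its brightest probe. The share of a list called in either direction is given beside the share of all probes, 9.39%, 23.4%, 29.5% and 8.87% at 1, 3, 7 and 14 days. Of 20 transcription factors tested that PGC-1 proteins dock on, 1 was called higher and 3 lower at both 3 and 7 days (20.0%, below all probes each time), with a median of -0.02 and 0.02. The 1 higher was *Nrf1*, a regulator of nuclear genes for mitochondria, at 0.29 and 0.48 (limma adjusted p = 0.000609 and 1.13e-05). The 3 lower were *Srebf1*, which encodes the lipogenic factor SREBP1, at -0.60 and -0.86, *Nr3c1*, the glucocorticoid receptor, at -0.23 and -0.28, and *Thrb*, a thyroid hormone receptor, at -0.19 and -0.24. *Ppara*, the fatty acid receptor that PGC-1α coactivates, was not called at any time, with means of 0.09, -0.06, -0.14 and 0.28 at 1, 3, 7 and 14 days. At 14 days *Nrf1* was higher at 0.19, and *Nr3c1* (-0.20) and *Hnf4a* (-0.21), a master factor of hepatocytes, were lower. These are 15.0% of the list, against 8.87% of all probes.

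Of 27 coregulators and modifying enzymes tested, 7 were called higher at 1 day, 7 at 3 days, 10 at 7 days and 2 at 14 days, and none lower. These are 25.9%, 25.9%, 37.0% and 7.41% of the list, where all probes gave 9.39%, 23.4%, 29.5% and 8.87%. They include *Crtc2*, the coactivator of CREB that carries the glucagon signal to the *Ppargc1a* promoter, at 0.21 and 0.38 at 3 and 7 days (-0.07 at 1 day, not called), and the mitochondrial deacetylase *Sirt3* at 0.28 and 0.25. *Gsk3b* (0.18, 0.24 and 0.20) and *Mapk14* (0.21, 0.22 and 0.13), kinases that act on PGC-1α, were called at 1, 3 and 7 days alike. With each channel divided by its total, *Crtc2* at 3 days (adjusted p = 0.0605) and *Mapk14* at 7 days (adjusted p = 0.0634) were no longer called, nor were *Sirt3* and *Crebbp* at 1 day (adjusted p = 0.0979 and 0.0543), while *Zfp746* was called lower at 1 day (-0.22, adjusted p = 0.0416). The list medians at these times were 0.06, 0.11 and 0.11, against 0.01 or less in size for all probes tested.

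Of 19 fasting and PPARα targets tested, 4 were called higher at 3 days and 5 at 7 days, and none lower. These are 21.1% and 26.3% of the list, below the 23.4% and 29.5% of all probes. They were *Angptl4*, a secreted inhibitor of lipoprotein lipase (0.50 and 0.59), *Cpt1a*, the gate of mitochondrial fatty acid entry (0.33 and 0.42), *Pck1*, the gluconeogenic PEPCK (0.31 and 0.31), *Cpt2* at 3 days (0.12), and at 7 days *Tat*, an amino acid catabolic enzyme (0.26), and *Acadl* (0.16), which oxidizes long acyl chains. With each channel divided by its total, *Cpt2* at 3 days (adjusted p = 0.0991) and *Acadl* at 7 days (adjusted p = 0.0518) were no longer called, and *Hadha* was called lower at 3 days (-0.13, adjusted p = 0.0433). The median of the list was 0.08 at 3 days and -0.07 at 7 days, with 15 and 14 of its genes not called. *Cpt1a* had arrays at 0.28 to 0.38 at 3 days and 0.38 to 0.47 at 7 days (limma adjusted p = 0.00115 and 0.000196), and was 0.33 higher at 7 days than at 1 day (adjusted p = 0.0186). At 14 days of H2-water 2 of the list were called higher and 2 lower (21.1%, against 8.87% of all probes). Among them *Cpt1a* (0.27, limma adjusted p = 0.00681) was higher and *Pck1* (-0.39) and *Hadha* (-0.17) were lower. At 1 day *Hadha* and *Acadm* were lower, at -0.23 and -0.22 (10.5% of the list, against 9.39% of all probes).

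*Fgf21*, the liver hormone that PPARα induces, was too dim for the fit. Its control pools were not well above background on any of the 9 MgH2 arrays, and its treated pools were so on none of 3 arrays at 1 day and on all 3 at 3 and at 7 days. The lowest signal well above background in each control channel, or the probe's own where higher, was set against it. By the mean log2 of 3 arrays it was at least 1.30-fold higher at 3 days and at least 2.08-fold at 7 days. These values may also hold a dye bias. At 7 days the treated signals were 35.4, 15.4 and 15.3 in replicates 1, 2 and 3, against 10.2, 8.61 and 10.4, so replicate 1 differed most. At 14 days 1 of 3 control pools and 3 of 3 treated pools were well above background. On the array where both were, replicate 1, the signal was lower in the treated pool (17.5) than in the control pool (22.7).

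Of 26 mitochondrial targets of ERR and NRF factors, 9 were called higher and 3 lower at 3 days and 7 and 3 at 7 days (46.2% and 38.5%, against 23.4% and 29.5% of all probes), with medians of 0.07 and 0.02. *Idh3a*, of the citrate cycle (0.39 and 0.41), and *Polrmt* (0.27 and 0.27) and *Tfb2m* (0.23 and 0.21), which transcribe mitochondrial DNA, were higher. *Ucp2*, a carrier of the inner membrane, was lower (-0.52 and -0.55). At 1 day 3 were higher and 3 lower (23.1%, against 9.39% of all probes), among them *Tfam* (-0.19). At 14 days 7 were higher and 2 lower (34.6%, against 8.87%), among them *Tfb1m* (0.22) and *Cs* (0.20). *Cox5a* (-0.17, -0.14, -0.12 and -0.20) and *Cox4i1* (-0.19, -0.16, -0.17 and -0.19) were called lower at 1, 3, 7 and 14 days alike. Their 7-day values came as near 0 as -0.03 and -0.007 among the alternatives. With each channel divided by its total, *Sdhb* was no longer called at 1, 3 and 14 days (limma adjusted p = 0.0826, 0.0701 and 0.0546).

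Of the 15 lipogenic and lipoprotein targets, 6 were called lower and none higher at both 3 and 7 days (40.0%, against 23.4% and 29.5% of all probes). *Fasn*, the fatty acid synthase, was at -1.73 and -1.70, *Elovl6*, which elongates its product, at -1.39 and -1.70, and *Scd1*, the desaturase, at -1.22 and -1.18. The list median was -0.47 and -0.26. None of the 15 was called by limma at 1 day or at 14 days (2 and 1 had an unadjusted p under 0.05, and the methods' t-test found 1 and 5 unadjusted and none adjusted). Between 14 and 7 days 6 were higher at 14 days (40.0%, against 6.59% of all probes), *Fasn* by 2.13. *Ppargc1b* itself was at -0.16 and 0.27.

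**Figure D5:**
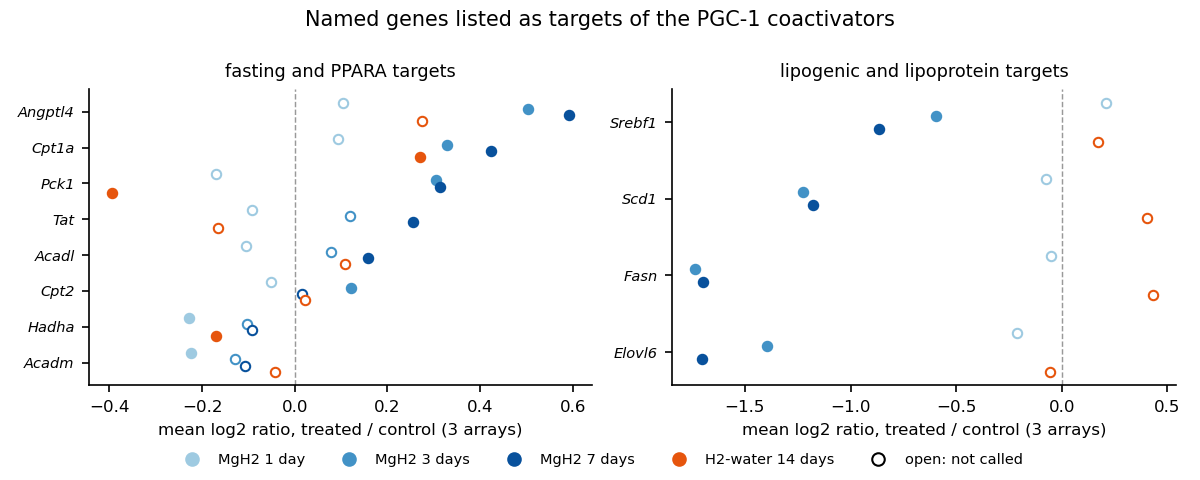
Mean log2 ratio (x axis, 3 arrays per group) of the fasting and PPARα targets (left) and lipogenic and lipoprotein targets (right) that the text names, by group; filled points have a limma adjusted p under 0.05. *Angptl4*, *Cpt1a* and *Pck1* lie between 0.31 and 0.59 at 3 and 7 days, and *Fasn*, *Elovl6* and *Scd1* between -1.73 and -1.18.

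Of the CREB and glucocorticoid early genes tested, *Fkbp5*, which glucocorticoids induce, was called at 3 days (0.77, 1 of 9) and 7 days (0.80), when *Sgk1* (0.44) was called as well (2 of 10; adjusted p = 0.0616 with each channel divided by its total). The called genes were 11.1% and 20.0% of those tested at 3 and 7 days, where all probes gave 23.4% and 29.5%. *Fkbp5* was 0.57 higher at 7 days than at 1 day (limma adjusted p = 0.0345). At 14 days *Nr4a2*, an early gene of CREB, was lower (-0.30), which is 11.1% of the list against 8.87% of all probes. Of 14 clock genes tested, *Cry2* alone was called, at 7 days (0.36), which is 7.14% of the list against 29.5% of all probes.

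Markers of other cells moved at the same times. Of 9 leukocyte and Kupffer cell markers tested, 4 were called lower at 3 days and 5 at 7 days, among them *S100a9* (-1.13 and -1.36) and *S100a8* (-0.68 and -0.97) of neutrophils and *Clec4f* (-0.36 and -0.45) of Kupffer cells, while *Cd3e* rose at 3 days (0.11; adjusted p = 0.118 with each channel divided by its total). The summed level of the 11 measured markers was 4.76 to 5.04 in the MgH2 control pools, 4.68 to 4.80 in the treated pools of 1 day and 4.39 to 4.58 in those of 3 and 7 days, and 9 of the 11 were well above background on all arrays. Of 8 hepatocyte markers, *Alb* (0.25 and 0.41), *Cyp2e1* (0.22 and 0.28) and *Tdo2* (0.18 and 0.23; adjusted p = 0.0555 at 3 days with each channel divided by its total) were called higher at 3 and 7 days and *Ttr* (0.22) at 7 days, with a summed level of 10.95 to 11.13 in the MgH2 control pools and 11.15 to 11.43 in the treated pools of 3 and 7 days. The part of these cells in the results for the PGC-1 genes and their lists was not tested, and in such bulk samples fewer cells of a type and less RNA per cell cannot be told apart. Of 5 erythroid markers tested, *Alas2* alone was called, lower at 3, 7 and 14 days (-0.56, -0.70 and -0.41). This is 20.0% of those tested each time, against 23.4%, 29.5% and 8.87% of all probes. The summed erythroid level of the treated pools of 3 days (8.23 to 8.44) and 7 days (7.89 to 8.44) lay within that of the MgH2 control pools (7.82 to 8.76). Of the adipocyte markers, *Adipoq*, *Lep* and *Plin1* were well above background on no array, and *Cfd* (-2.42 at 7 days) varied from -3.57 to 2.61 over the arrays. *Retn*, well above background on 11 of the 12 arrays, varied from -2.41 to 1.53. The summed level of the 5 adipocyte markers was -1.69 to 1.06 in the MgH2 control pools. In the treated pools it was 0.05 to 0.68 at 1 day and -2.16 to -1.19 at 3 and 7 days. Of 13 acinar markers 3 were above background on all arrays, and *Prss2* and *Cela1* on none. Of 6 muscle markers none was.

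The genes whose ratios followed the brighter *Ppargc1a* probe most closely over the 12 arrays, among 11482 genes above background on all of them, were *Brap* (r = 0.96), *Pkn2* (r = 0.95), *Lurap1l* (r = 0.94), *Gpbp1l1* (r = 0.94) and *Mbtd1* (r = 0.94). The MgH2 arrays of a number may share a control pool, and these values describe the arrays and carry no p. *Brap* averaged -0.02, 0.31, 0.45 and -0.01 at 1, 3, 7 and 14 days. Among the other members *Sirt1* (r = 0.78), *Lpin1* (r = 0.67, brighter probe) and *Nrip1* (r = 0.59) came nearest, and *Esrra* (r = 0.44), *Pprc1* (r = 0.16) and *Ppargc1b* (r = 0.06) followed. *Cpt1a* stood at r = 0.74 and *Ppara* at r = -0.34.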

How the data were processed

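The intensity values were deposited by the authors as Feature Extraction output (10.7.3.1 for the arrays of 14 days and 10.10.1.1 for MgH2 per the file headers, 10.10.1 per the labels). They are corrected for background and normalized between dyes within an array. The deposited log10 ratios and the log2 table of the same ratios served as an alternative only. The probe design is on mm9, and no genome was used here.

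Spots marked as outliers were left out and spots of a probe averaged. The log2 ratio of treated over control intensity was fitted over all 12 arrays with limma 3.58.1 in R 4.3.3, tested two-sided on simulated data first, as group means against 0 and differences between days. P-values were Benjamini-Hochberg adjusted over probes that both channels of every array compared held well above background (called under 0.05). Alternatives were other scalings, backgrounds and filters, replicate and slide blocks, single arrays left out and the methods' t-test. The slide as a fixed block and the replicate block within the MgH2 arrays were added after seeing the data. Precision is limited by 3 arrays per group. Ratios of MgH2 arrays deviated together within a replicate number (r from 0.368 to 0.655 over 9 pairs) but less with those of 14 days (-0.041 to 0.288), so numbers pair the MgH2 arrays. This pairing comes from the data, not the labels.

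A gene is shown by its brightest probe. The genes named are the 7 members, *Ppara*, *Cpt1a* and *Fgf21*, the 4 largest called genes per list and comparison, and the 5 most like *Ppargc1a*. Some of these are given by counts only or are not reported here. Names came from RefSeq records (GRCm38.p6, 67.0% of probes). *Selenbp2*, *Hbb-b1*, *Hbb-bs* and *Cd68* matched no probe. Members and lists were chosen with earlier results of these data known.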

Additional observations from a re-analysis of the deposited data

Results flagged for a closer look

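Ratios that differed between groups by the test of the difference are those of the dimmer *Ppargc1a* probe between 7 days and 1 day of MgH2 (1.53) and between 14 days of H2-water and 7 days of MgH2 (-1.33), and that of *Nrip1* between the last pair (-0.30). *Nrip1* was also below 0 on all 3 arrays of 14 days and above 0 on all 3 arrays of 3 days, a difference of -0.18 that was not tested. The signals of the dimmer *Ppargc1a* probe were 26.4 to 159. Its call between 7 days and 1 day was lost with no filter on dim probes. No group held enough arrays for a test of single arrays that stand apart.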

How the results depend on the processing

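Of 70 results of the members, none that was called changed direction under any alternative run, 12 were called, and 52 of the 58 not called stayed so under every alternative. None of the 12 was called under every alternative, since the methods' t-test, adjusted over all probes, called no member, and 2 were called whichever array was left out. For the brighter *Ppargc1a* probe, the 3-day value of 0.58 lost its call with no filter on dim probes (adjusted p = 0.0863), with only the arrays compared (0.0788) and by the methods' t-test, adjusted (0.148), which also took the call from the 7-day value of 0.77 (0.143). The replicate block over the MgH2 arrays brought a call for 7 against 1 day (0.70), and the slide as a random block one for 14 against 7 days (-0.79). The replicate block over all 12 arrays, whose numbers do not pair 14 days with MgH2, called the brighter *Lpin1* probe there (-0.84, adjusted p = 0.0248). Leaving out single arrays gave 0.42 to 0.66 at 3 days and 0.67 to 0.86 at 7 days for the brighter *Ppargc1a* probe.

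Counts of all probes called depend more on the setting. With the replicate number as a block they became 2968 at 1 day (from 1846), 2812 at 14 days (from 1814), 64 for 3 against 1 day (from 4), 2571 for 7 against 1 day (from 1334) and 2493 for 14 against 7 days (from 1234), and with the block over the MgH2 arrays, where the pairing holds, 2941, 174 and 2675 at 1 day, for 3 against 1 and for 7 against 1 day. The slide as a random block gave 3032 at 1 day, 2555 for 7 against 1 and 2123 for 14 against 7 days, and as a fixed block, added after seeing the data, 0 for 3 against 1 and 7 against 1 day (1518 and 1425 unadjusted). Only the arrays compared gave 101, 292, 2177 and 501 at 1, 3, 7 and 14 days, 0 for 3 against 1, 184 for 7 against 1 and 420 for 14 against 7 days. No filter gave 714 at 1 day, 2430 at 3 days, 0 for 3 against 1, 109 for 7 against 1 and 6642 for 14 against 7 days. The methods' t-test gave 66, 34, 73 and 52 adjusted at 1, 3, 7 and 14 days, and 2931 and 4099 unadjusted at 1 and 14 days. For 3 against 1 day, centring gave 1 and normexp with loess 18. Leaving out single arrays gave 411 to 772, 2062 to 2949, 3087 to 4007 and 438 to 572 at 1, 3, 7 and 14 days, 0 to 8 for 3 against 1, 198 to 882 for 7 against 1, 0 for 7 against 3 and 103 to 779 for 14 against 7 days. Where a cause is not in the setting's own construction, the cause was not tested. Dividing each channel by its total turned the split of higher and lower calls from 1013 and 833 to 717 and 1580 at 1 day, from 2388 and 2149 to 1759 and 2821 at 3 days, from 2973 and 2775 to 2382 and 3350 at 7 days and from 1012 and 802 to 795 and 1178 at 14 days, with the same member calls.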
